A study of Mus musculus with 28 samples.

Results

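Nuclei that carried Cas9 were compared between the g4 and the empty form of an adeno-associated virus vector for Cas9 named for miR-124, in the motor cortex of 7 mice. The comparison took every HA-positive library of the series, 7 with g4 and 7 with empty vector, 14 of 28 libraries in all. The left motor cortex of each animal had been injected with AAV-Cas9-miR-124-empty and the right with AAV-Cas9-miR-124-g4, so every group carried an AAV for Cas9, and vector and hemisphere cannot be told apart. Nuclei of tissue fixed in 1% PFA were stained for the HA tag of Cas9 and sorted into an HA-positive and an HA-negative fraction, and 40 to 2000 pg of RNA went into each library. The labels give no genotype, strain, age, sex, time after injection or promoter of the vector, and do not say what g4 stands for. The 7 animals were the replicates, numbered 17 to 23 as in the sample titles.

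MicroRNAs guide Argonaute proteins to messenger RNAs that pair with their seed, and the paired messengers are translated less and degraded sooner. miR-124 is an abundant neuronal microRNA, encoded at several loci and known for holding down non-neuronal genes and the splicing repressor Ptbp1 in neurons. Loss of a microRNA is therefore usually read from the messengers that hold its sites, although RNA of nuclei is a step away from the cytoplasm, where most of this repression takes place.

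The sites counted were GTGCCTTA (8mer), GTGCCTT (7mer-m8) and TGCCTTA (7mer-A1), read on the sense strand of the 3′ UTR (for genes with several annotated, the longest), each site counted once in the longest class. Of the 3′ UTRs of 21037 protein-coding genes, 19.7% held any of these sites and 2.69% an 8mer, and among the 4827 tested genes with a 3′ UTR the shares were 28.3% and 3.48%. The sites below are those of genes that the results turn on, each with its flanks, 5′ to 3′ on the gene's strand, with the site in capitals and GRCm38 coordinates of the GENCODE annotation. Lrrc58, the gene that passed the test with g4 on the higher side, held 5 sites, of which the 8mer and both 7mer-m8 sites are shown. Vat1 and Gria2 were among the leading other 8mer genes that stood higher, and Itgb1 is a reported miR-124 target. Cdh7 and Myrf are shown because they held the same 8mer and stood lower.
Lrrc58 8mer, chr16:37882023-37882050, plus strand: agtgatatgttataGTGCCTTAatccta
Lrrc58 7mer-m8, chr16:37887001-37887027, plus strand: cattgagtttgtaaGTGCCTTtaccta
Lrrc58 7mer-m8, chr16:37888622-37888648, plus strand: ttgccttaaacattGTGCCTTgtttta
Vat1 8mer, chr11:101459471-101459498, minus strand: ttggatttgtctcaGTGCCTTAgcatct
Vat1 7mer-m8, chr11:101459380-101459406, minus strand: cacccttctccccaGTGCCTTcctcgt
Gria2 8mer, chr3:80688518-80688545, minus strand: taggaaccttctgaGTGCCTTAcacaat
Itgb1 7mer-m8, chr8:128732307-128732333, plus strand: gctgaggtcacagtGTGCCTTtttaac
Itgb1 7mer-m8, chr8:128733114-128733140, plus strand: caatcttgttttaaGTGCCTTttcatt
Cdh7 8mer, chr1:109996559-109996586, plus strand: aattacaaagatgtGTGCCTTAagttac
Myrf 8mer, chr19:10209780-10209807, minus strand: gagaagctgaccttGTGCCTTAagtcta

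The libraries were shallow. Total counts lay between 248612 and 662396 with empty vector and between 335365 and 902944 with g4. Detected genes lay between 8687 and 12778 with empty vector and between 9282 and 13526 with g4, so the empty libraries tended to be the less complex. The g4 library of animal 19 stood apart from the others. It held Xist at 646 CPM (counts scaled to library size with TMM factors) together with Y-linked transcripts at 48.1 CPM, whereas Xist was at 0 in the other HA-positive libraries of animals 17 to 20. Its summed oligodendrocyte markers reached 2116 CPM against at most 559 in the other 6 g4 libraries, its microglia markers 444 against at most 50.4, and its markers of striatal projection neurons 955 against at most 489. Results are given with and without this library.

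Between the vectors, 3 genes passed the test in HA-positive nuclei. Lrrc58, a leucine-rich repeat gene, was higher with g4, and Oip5os1, the noncoding RNA also called Cyrano, and Vamp1, a SNARE protein of synaptic vesicles, were lower. They were 0.0599% of the 5011 genes tested with edgeR's quasi-likelihood test at a Benjamini-Hochberg adjusted p under 0.05, with 0.02% on the higher and 0.0399% on the lower side. At an unadjusted p under 0.05 stood 335 genes (6.69%), 163 higher (3.25%) and 172 lower (3.43%). Without the g4 library of animal 19, 5 of 4887 genes passed (0.102%), with Vat1 added on the higher (0.0409%) and Emilin2 on the lower side (0.0614%), and 6.38% stood at an unadjusted p under 0.05. With the animal as a block in the model, 1 gene, Oip5os1, passed on the lower side (0.02%) and 0 on the higher (0.0%). With the block and without that library, Lrrc58 passed on the higher (0.0205%) and Oip5os1 and Emilin2 on the lower side (0.0409%), 3 genes in all (0.0614%). DESeq2 called 11 genes (0.22%), Lrrc58, Vat1, Kcnq3 and Thrb on the higher side (0.0798%) and Oip5os1, Vamp1, Syt2, Gad2, Reln, Cep295 and Cass4 on the lower (0.14%). Limma voom called Oip5os1 and Vamp1 (0.0399%) and 0 genes on the higher side (0.0%). In bulk sorted nuclei, fewer nuclei of a type and less RNA per nucleus cannot be told apart.

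In the empty libraries Lrrc58 lay between 87.3 and 173 CPM with a median of 132. In the g4 libraries it lay between 134 and 411 with a median of 318. In 6 of the 7 g4 libraries, at 306 CPM or more, it was above every empty library, and the low value of 134 was that of animal 19. The log2 fold change was 1.26 ± 0.21 (SE), or 2.40-fold, with an adjusted p of 0.00387 by edgeR, and 1.40 with an adjusted p of 6.79e-05 without that library. With the animal as a block, adjusted p = 0.0715, and 0.00166 with the block and without the g4 library of animal 19, where the remaining library of that animal carries no information. The change was 1.20 within animals 17 to 20, whose libraries held Y-linked transcripts, and 1.34 within animals 21 to 23, whose libraries held Xist.

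Vat1, a gene of a vesicle membrane protein, showed a larger change at a lower level. It lay between 11.4 and 44.3 CPM with a median of 25.0 in the empty libraries, and between 32.7 and 161 with a median of 72.4 in the g4 libraries. Again 6 of 7 g4 libraries were above every empty library, and the lowest was animal 19. The log2 fold change of 1.67 ± 0.38 had an adjusted p of 0.137 by edgeR over all libraries and of 0.0296 without animal 19's g4 library, where it was 1.82. DESeq2 called it on all libraries (adjusted p 0.0114). With the block edgeR gave 0.364, and 0.202 with the block and without that library. It was 2.15 within animals 17 to 20 and 0.93 within animals 21 to 23.

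Oip5os1 (chromosome 2, 119594297 to 119607502, GRCm38) is a nuclear and cytoplasmic noncoding RNA known for directing the decay of miR-7. It lay between 608 and 1264 CPM with a median of 726 in the empty libraries, and between 385 and 552 with a median of 422 in the g4 libraries. The groups did not overlap, and the g4 library was the lower in 7 of 7 animals. The log2 fold change was -0.89 ± 0.15, or 1.86-fold lower, with an adjusted p of 0.00387, of 0.00332 with the block and of 0.00289 without the g4 library of animal 19. The other tested members of its network, Hnrnpk (-0.20 ± 0.17) and the Cdr1as-related transcript Cdr1os (-0.15), lay on the lower side and failed the test.

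Vamp1 (chromosome 6, 125215551 to 125245964) lay between 182 and 455 CPM with a median of 289 in the empty libraries, and between 79.6 and 174 with a median of 140 in the g4 libraries. These groups did not overlap either, and it was lower in 7 of 7 animals. The log2 fold change was -1.11 ± 0.20, or 2.15-fold lower (adjusted p 0.0103 by edgeR). With the block, edgeR gave an adjusted p of 0.0835. Without animal 19's g4 library it was 0.0296 without the block and 0.214 with the block. Its call was also lost without the g4 library of animal 22 (adjusted p 0.0535). Its 3′ UTR of 2512 bases held 0 miR-124 sites. With the libraries under 10000 detected genes left out, 0 genes passed by edgeR. Lrrc58 was then at 1.03 (adjusted p 0.205), Oip5os1 at -0.74 (0.0861) and Vamp1 at -1.18 (0.0575). This cut left out the empty libraries of animals 17, 21 and 22 and the g4 library of animal 18. Fewer empty than g4 libraries therefore remained, and fewer libraries and library quality cannot be told apart here.

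**Figure D1:**
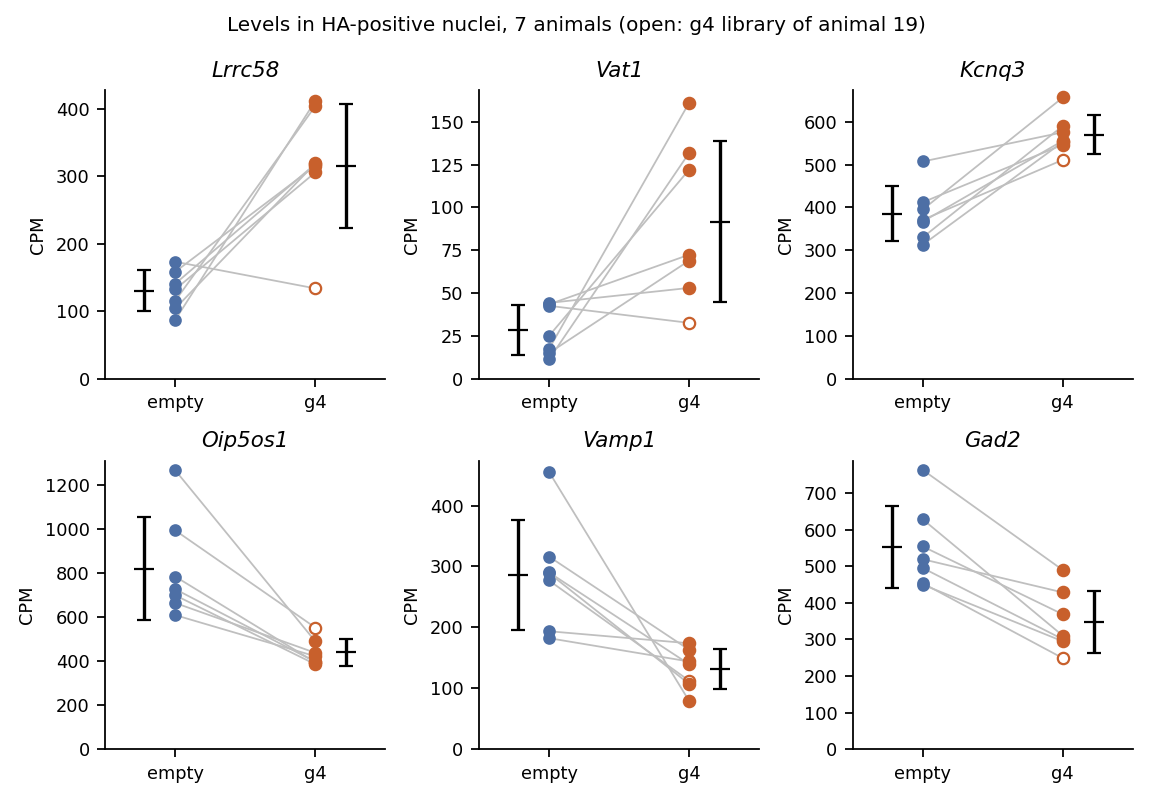
CPM of 6 genes in the 14 HA-positive libraries; each grey line joins both hemispheres of an animal, bars give mean ± SD (n = 7), and the open circle is the g4 library of animal 19. Lrrc58 and Vat1 stand above the empty range in 6 of 7 g4 libraries, and Oip5os1 and Vamp1 below it in 7 of 7.

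The groups did not overlap for 12 of the 5011 genes (0.239%), 6 in each direction (0.12% each). Beside Oip5os1 and Vamp1, these were Utp14b, Cmtm4, Thrb, Sqle, Kcnq3 and Usp9x on the higher side and Kif5c, Abcb9, Cct4 and Shroom2 on the lower. Several were named after their values were seen. Without the g4 library of animal 19, 20 genes (0.399%), 10 in each direction (0.2% each), did not overlap, Lrrc58 and Vat1 among them. Kcnq3, a subunit of the M-current potassium channel that damps firing, lay between 313 and 507 CPM in the empty and between 511 and 657 in the g4 libraries. Its log2 fold change was 0.56 ± 0.13 (adjusted p 0.137 by edgeR, 0.0114 by DESeq2). Thrb, a thyroid hormone receptor, lay between 66.2 and 116 CPM and between 141 and 216, a log2 fold change of 0.84 ± 0.20 (0.162 by edgeR, 0.0253 by DESeq2).

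The 12 genes with the smallest p-values on each side were read in the same way. On the higher side followed Slit1, an axon guidance ligand, at 21.6 ± 9.05 CPM with empty vector and 64.4 ± 31.4 with g4 (SD, n = 7), and Pcp4, a calmodulin regulator, at 86.3 ± 43.2 and 164 ± 59.8. Frrs1l, an assembly factor of AMPA receptors, had 320 ± 59.9 and 459 ± 59.9 CPM. Each of these was higher in 7 of 7 animals, and none passed edgeR (adjusted p 0.227 to 0.344). Of the 12 genes on the higher side, Lrrc58, Vat1, Kcnq3, Thrb, Slit1, Frrs1l, Cmtm4, 2900026A02Rik, Slc12a2 and Itgb1 held a miR-124 site, and Pcp4 and Slc1a2 held none. On the lower side 3 of 12, Cass4, Lifr and Ppp1cb, held a site, beside 28.3% of all tested genes with a 3′ UTR. Oip5os1, a noncoding RNA among the 12 on the lower side, has no 3′ UTR. Longer 3′ UTRs held sites more often. Of tested genes with one of 2725 bases or more, 794 held a site and 815 none. The leading genes were not matched for this length.

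On the lower side, Gad2, an enzyme that makes the transmitter GABA, lay between 450 and 763 CPM in the empty and between 249 and 490 in the g4 libraries. It was lower in 7 of 7 animals, with a log2 fold change of -0.66 ± 0.16 (adjusted p 0.162 by edgeR, 0.0715 with the block, 0.0429 by DESeq2). Reln, the secreted guidance protein reelin, had 310 ± 103 and 178 ± 29.6 CPM (SD, n = 7; -0.80 ± 0.20). Cep295, a centriole protein, had 187 ± 92.3 and 78.9 ± 36.3. Hapln4, a link protein of perineuronal nets, had 125 ± 46.2 and 59.2 ± 26.3, and Cplx2, a clamp of vesicle fusion, 488 ± 166 and 316 ± 56.7. These 4 were lower in at least 6 of 7 animals and failed edgeR (adjusted p 0.162 to 0.364). Emilin2, an extracellular matrix protein, had a median of 75.3 CPM with empty vector and 15.0 with g4, and 100.2 in the g4 library of animal 19. It passed without that library (-2.63, adjusted p 0.0134) and not with it (-1.65 ± 0.57, 0.676).

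**Figure D2:**
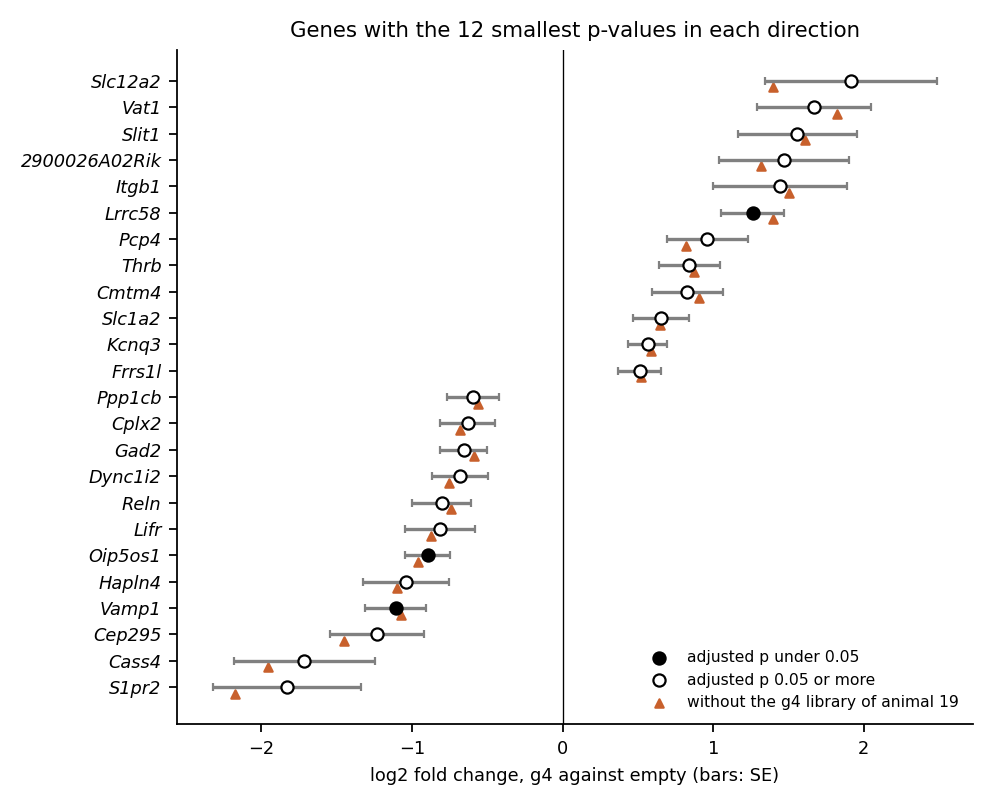
Log2 fold change, g4 against empty, for the leading genes on each side, with bars for the SE; filled circles passed edgeR and triangles give the value without the g4 library of animal 19. Lrrc58, Oip5os1 and Vamp1 are the filled ones, and each triangle lies on the same side of 0 as its circle.

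Genes with miR-124 sites stood higher with g4 than genes without. The 168 tested genes with an 8mer had a median log2 fold change of 0.17, and 115 of them (68.5%) were on the higher side. The 3463 genes without a site had a median of -0.04, with 44.8% higher, and all 5011 genes one of -0.01, with 49.2% higher. The 1364 genes with any site lay between, at 0.07 and 57.4%. Members with an unadjusted p under 0.05 numbered 11 higher and 4 lower among 8mer genes, 45 and 10 among genes with a 7mer-m8 and no 8mer, 17 and 18 among genes with 7mer-A1 sites alone, and 72 and 134 among genes without a site. After adjustment, 1 gene with a site, Lrrc58, was called, against 0.0599% of all genes. These shifts are medians over many genes and are described without a test.

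The kind and number of sites ordered the medians. Genes with a 7mer-m8 and no 8mer had a median of 0.05 (n = 693) and genes with 7mer-A1 sites alone one of 0.04 (n = 503). A single site went with a median of 0.05 (1000 genes), 2 sites with 0.11 (271 genes) and 3 or more with 0.13 (93 genes). Genes with sites also had longer 3′ UTRs, with a median of 3178 bases against 1471 without a site. With genes split into 3 equal bins of 3′ UTR length, the difference between 8mer genes and genes without a site was 0.24, 0.29 and 0.16 from short to long, resting on 8, 45 and 115 8mer genes. In 3 such bins of the GC content of the 3′ UTR it was 0.20, 0.19 and 0.26, and in bins of gene span 0.15, 0.23 and 0.17. In bins of mean CPM it was 0.26, 0.13 and 0.19 from low to high. The difference for any site fell there from 0.19 over 0.11 to 0.057. Without the g4 library of animal 19, the medians were 0.17 for 163 8mer genes, 0.05 for any site and -0.04 for none.

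The shift was present in each animal. The mean log2(CPM + 1) of 8mer genes minus that of genes without a site, centred over the libraries, lay between -0.214 and 0.0129 in the empty libraries, with a median of -0.0933. It lay between 0.0562 and 0.138 in the g4 libraries, with a median of 0.0884, and animal 19's g4 library was that median. The groups did not overlap. The g4 minus the empty level was positive in 7 of 7 animals, from 0.0857 in animal 22 to 0.296 in animal 17, with a mean of 0.185 ± 0.0873 (SD, n = 7). The empty libraries were the more spread (SD 0.0908 against 0.0289). For genes with any site the same difference was 0.0176 to 0.181, also positive in 7 of 7, and the groups overlapped.

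**Figure D3:**
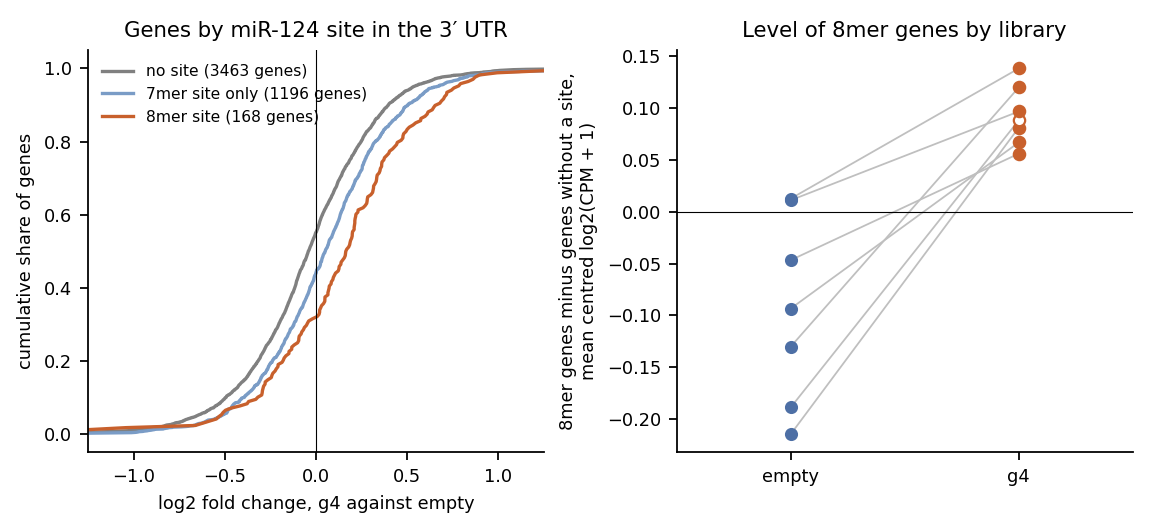
Left, cumulative share of tested genes by log2 fold change for genes without a miR-124 site, with 7mer sites only and with an 8mer; right, level of 8mer genes relative to genes without a site in each library, with lines joining the hemispheres of an animal. The 8mer curve lies to the right of the curve without sites through its middle, and all 7 g4 libraries lie above all 7 empty ones.

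The same count was made for 17 other microRNA families of the brain. Their difference in median between 8mer genes and genes without a site lay between -0.04 and 0.14, against 0.21 for miR-124. The value of 0.14 was that of miR-99, which rested on 18 genes. Of the 16 families with at least 100 8mer genes, the highest value was 0.08, for miR-181, and the next 0.07, for miR-218. With genes that held a miR-124 site left out, the 8mer differences of the other families lay between -0.09 and 0.20. The value of 0.20 was again that of miR-99, on 10 genes, with miR-181 at 0.07 and miR-218 at 0.02. With all genes kept, the any-site differences lay between -0.01 and 0.05, against 0.11 for miR-124. Mature sequences from RefSeq (GRCm38.p6) are shown with the seed, bases 2 to 8, in capitals. They are those of the 3 families with the next highest 8mer differences over all genes, and of miR-9, a further neuronal microRNA at 0.05. None shares a seed with another.
miR-99a-5p: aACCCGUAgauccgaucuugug
miR-181a-5p: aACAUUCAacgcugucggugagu
miR-218-5p: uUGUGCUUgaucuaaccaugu
miR-9-5p: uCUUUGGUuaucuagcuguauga

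**Figure D4:**
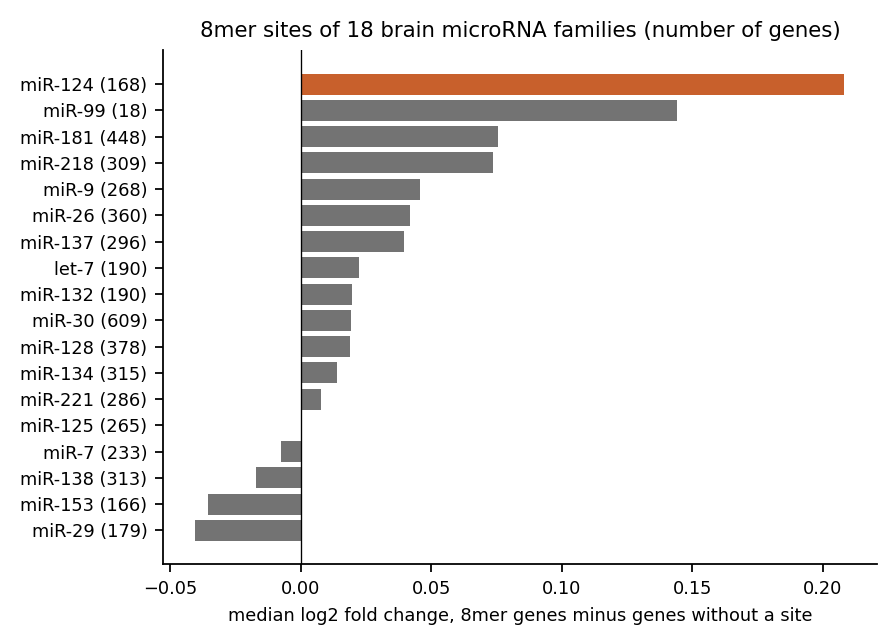
Difference in median log2 fold change (g4 against empty) between genes with an 8mer site and genes without a site, for 18 microRNA families, with the number of 8mer genes in parentheses. miR-124, at 0.21, stands at the top, and miR-99, at 0.14, rests on 18 genes.

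Over all 14 libraries, 0 of the 8mer genes other than Lrrc58 passed edgeR. Gria2, the AMPA receptor subunit that blocks calcium entry, lay between 495 and 819 CPM in the empty and between 697 and 975 in the g4 libraries and was higher in 7 of 7 animals (log2 fold change 0.36 ± 0.13, adjusted p 0.671 by edgeR). Rragd, a GTPase of the amino acid sensing pathway, had 50.2 ± 15.0 and 83.4 ± 20.7 CPM (SD, n = 7). Scd2, a fatty acid desaturase, had 339 ± 69.1 and 480 ± 189, with its highest value, 825 CPM, in the g4 library of animal 19. On the lower side, Cdh7, a cadherin, had 87.5 ± 69.5 and 42.1 ± 22.1 CPM. Myrf, the transcription factor of myelin genes, had 334 ± 132 and 137 ± 106 (-1.27 ± 0.54, adjusted p 0.73). An 8mer therefore went with values on both sides of 0, with 53 of 168 genes on the lower one.

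Of 33 genes reported elsewhere as miR-124 targets, 11 had enough counts to be tested. Among these, 9 were higher and 2 lower with g4, with a median of 0.25 (0.27 without animal 19's g4 library) beside -0.01 for all genes, and 0 passed the test (0.0599% of all genes). At an unadjusted p under 0.05 stood Itgb1, Creb1 and Gria2. Itgb1, an integrin subunit, lay between 0 and 40.3 CPM in the empty and between 39.8 and 88.5 in the g4 libraries (1.44 ± 0.44, adjusted p 0.457), so that the groups met at a single pair of libraries. Creb1, an activity-regulated transcription factor, lay between 26.6 and 50.2 and between 42.5 and 129 (0.87 ± 0.32, 0.676). Cd164, a sialomucin with 2 8mers, had 54.2 ± 17.4 and 66.0 ± 23.9 CPM (SD, n = 7), and the AMPA receptor subunit Gria3, with 1 8mer, 297 ± 50.1 and 279 ± 58.9. Ptbp1 and the other 21 reported targets were too low to be tested.

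Splicing regulators, neuronal ones and others, lay mostly on the higher side. Of 16 tested members 11 were higher, beside 49.2% of all genes tested, with a median of 0.22, and 0 were called. The 5 lower ones included the neuronal regulators Nova1 (-0.46) and Nova2 (-0.33). Qk, an RNA-binding protein of glia with 1 8mer, had 114 ± 49.4 CPM with empty vector and 175 ± 81.1 with g4 (0.64 ± 0.27), and 0.38 without animal 19's g4 library. Srrm4, which drives the inclusion of neuronal microexons, had 34.1 ± 23.6 and 61.8 ± 26.8 (0.92 ± 0.41, both SD with n = 7). Of 11 tested genes of microRNA processing and silencing 7 were higher (median 0.09), with Ddx6, a helicase of repressed messengers, at 166 ± 28.9 and 211 ± 41.3 CPM. Of 12 subunits of the BAF chromatin remodelling complex 8 were lower (median -0.07), and of 5 members of the REST repressor complex and its phosphatases 3 were lower. In these 3 lists 0 genes were called.

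Genes of inhibitory neurons and of fast transmitter release lay mostly on the lower side. Of 18 tested interneuron markers 12 were lower (median -0.22, and -0.17 without animal 19's g4 library), and 0 were called. Those with an unadjusted p under 0.05 included Gad2, Reln and the vesicular GABA transporter Slc32a1 (-0.66). Gad1, a further enzyme that makes GABA, was at -0.20 ± 0.19 and higher with g4 in 3 of 7 animals. The 6 members on the higher side included Erbb4 (0.20) and Nxph1 (0.25). Pvalb, a calcium-binding protein of basket cells, was at -0.53, the peptide Sst at -0.20, and Vip, a peptide of another interneuron class, at 0.76, and all 3 failed the test. Of 23 genes of vesicle fusion 17 were lower (median -0.09), beside 50.8% of all genes tested, and Vamp1 was the 1 called, beside 0.0599% of all genes. Syt2, the fast calcium sensor of release, lay between 86.8 and 391 CPM in the empty and between 45.1 and 137 in the g4 libraries (-1.11 ± 0.27). It was lower in 5 of 7 animals, with an adjusted p of 0.162 by edgeR and 0.0423 by DESeq2.

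The summed level of the interneuron list lay between 4471 and 6379 CPM in the empty libraries, with a median of 4969. It lay between 2932 and 5259 in the g4 libraries, with a median of 4554, and the lowest was the g4 library of animal 19. In the HA-negative libraries, scaled over all 28 libraries, the interneuron list summed to between 1410 and 1933 CPM. Scaled in the same way, several genes lower with g4 had higher means in HA-positive than in HA-negative nuclei of the empty vector. Oip5os1 had 782 and 511 CPM, Gad2 527 and 255, and Hapln4 119 and 51.1. Of genes higher with g4, Pcp4 had 82.4 and 283 CPM and Slc1a2 671 and 1085. Lrrc58, at 125 and 106, and Vat1, at 27.2 and 13.5, had the higher mean in HA-positive nuclei. The part of the interneuron sum, or of the make-up of the nuclei, in the values of Vamp1, Gad2, Syt2 and these genes was not tested.

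Excitatory markers and channels were less uniform. Of 20 tested excitatory neuron markers 15 were higher (median 0.14), with Neurod6, a factor of cortical projection neurons, at 31.2 ± 20.7 CPM with empty vector and 57.6 ± 23.8 with g4 (SD, n = 7). Of 26 ion channel genes 17 were lower (median -0.19), with Kcnq3 on the other side. Scn8a, a sodium channel of the axon initial segment, had 566 ± 62.5 and 419 ± 111 CPM (-0.43 ± 0.15, adjusted p 0.671). Of 22 glutamate and GABA-A receptor subunits 13 were higher (median 0.06). In these 3 lists 0 genes were called.

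The remaining lists held 0 called genes as well. Of 10 immediate early genes 8 were higher (median 0.21), with Arc, which trims AMPA receptors, at 0.53 ± 0.26, while Vgf, a secreted neuropeptide precursor, was at -0.49 ± 0.21. Of 6 genes of the p53 and DNA break response 5 were higher (median 0.30), with Ccng1, a p53 target, at 0.56 ± 0.33 (adjusted p 0.755). The 1 tested gene of antigen presentation, B2m, had 20.4 ± 14.9 and 32.2 ± 11.4 CPM (SD, n = 7). Of 9 nuclear long noncoding RNAs 8 were higher (median 0.20), with Malat1 at 0.45 ± 0.16 and Rian, of the imprinted Dlk1 locus, at 0.38 ± 0.14. Of 15 mitochondrially encoded genes 13 were higher (median 0.15).

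Astrocyte genes lay on the higher side with g4. Of 8 tested astrocyte markers 7 were higher, with a median of 0.54 (0.62 without animal 19's g4 library), and 0 were called. Slc1a2, the main glutamate transporter of astrocytes, lay between 545 and 1140 CPM in the empty and between 761 and 1812 in the g4 libraries and was higher in 7 of 7 animals (0.65 ± 0.18, adjusted p 0.364, and 0.0835 with the block). The summed list lay between 877 and 1844 CPM with a median of 930 in the empty libraries and between 1167 and 3225 with a median of 1705 in the g4 libraries, and all 14 markers had a count in some library. In the HA-negative libraries, scaled over all 28 libraries, the sum lay between 1477 and 2222 CPM. Slc1a2 had 1085 ± 107 CPM there with empty vector and 1104 ± 162 with g4 (SD, n = 7). Whether the make-up of the sorted nuclei differed between the vectors was not tested.

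Of 4 tested oligodendrocyte markers 2 were higher and 2 lower. The median was 0.17, and -0.05 without the g4 library of animal 19. The summed oligodendrocyte list had a median of 497 CPM in the empty and 326 in the g4 libraries. It lay between 1744 and 3589 CPM in the HA-negative libraries, scaled over all 28 libraries. The 15 microglia markers and the 16 markers of endothelial, mural and fibroblast cells had 0 tested members. Their sums reached at most 52.3 and 44.3 CPM in the empty libraries.

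**Figure D5:**
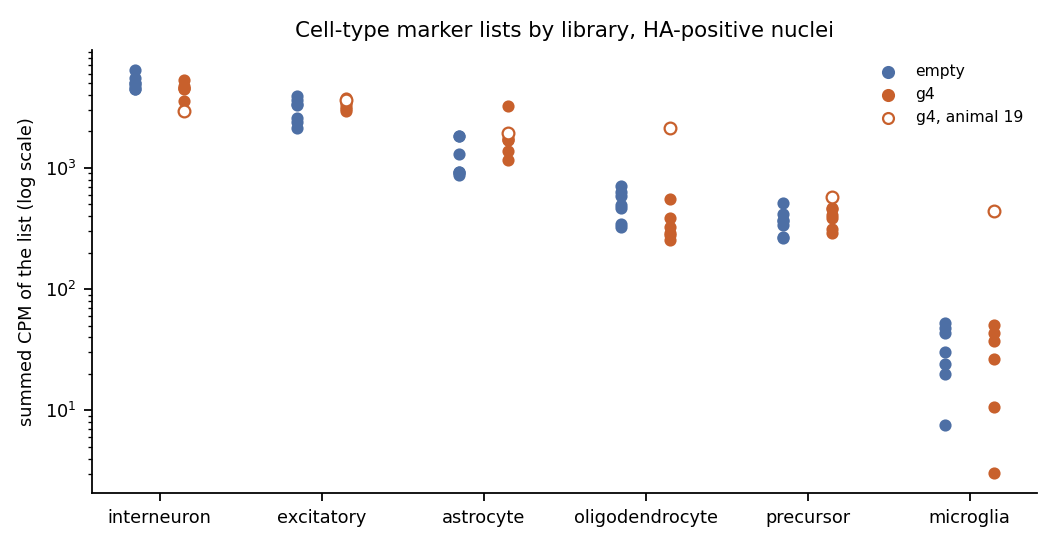
Summed CPM (log scale) of 6 cell-type marker lists in each HA-positive library, empty in blue and g4 in orange, with the g4 library of animal 19 as an open circle. That library is the highest for oligodendrocyte, precursor and microglia markers and the lowest for interneuron markers, while the astrocyte sums of the other g4 libraries reach up to 3225 CPM.

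In the HA-negative fraction 0 of 6262 genes passed edgeR (0.0%), with 236 (3.77%) at an unadjusted p under 0.05. The median was 0.04 for 223 8mer genes, 0.01 for any site and -0.01 for none, and 56.5%, 52.2% and 48.5% of these genes were higher with g4. At an unadjusted p under 0.05 by edgeR stood 7 higher and 2 lower 8mer genes. The counts were 45 and 19 for any site and 81 and 86 for none, so a smaller lean of the same direction was present in this fraction. Lrrc58 had 106 ± 19.2 CPM with empty vector and 122 ± 48.8 with g4 there (SD, n = 7), and Oip5os1 511 ± 86.8 and 502 ± 89.4. Vamp1 had 74.8 ± 28.3 CPM with empty vector and 54.8 ± 24.2 with g4, and Syt2 36.6 ± 17.5 and 22.3 ± 7.69, so both had lower means with g4 in this fraction too, and both failed the test (adjusted p 0.999 by edgeR). Whether the g4 effect differed between the fractions was tested over all 28 libraries in a model without an animal term, although the 4 libraries of an animal are paired, and 0 of 7197 genes passed edgeR (0.0%), with 359 (4.99%) at an unadjusted p under 0.05, and 0 passed DESeq2. With the animal as a block 0 passed edgeR as well. The difference of effects was -0.85 ± 0.19 for Oip5os1 (adjusted p 0.414), 1.05 ± 0.30 for Lrrc58 (0.797) and -0.63 ± 0.35 for Vamp1 (0.985), so no change in HA-positive nuclei was shown to be particular to them. In that model, where the libraries share 1 estimate of the spread, 8 genes (0.111%) passed between the vectors in HA-positive nuclei, 6 higher (0.0834%) and 2 lower (0.0278%).

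The hairpin gene Mir124a-2 had 0, 1, 4, 30, 17, 2 and 3 counts in the g4 libraries of animals 17 to 23 and 0 in every empty library, while Mir124a-1 and Mir124a-3 were at 0 in all 14. Of the host transcripts, Mir124-2hg had 86.3 ± 57.6 CPM with empty vector and 136 ± 32.3 with g4, and Mir124a-1hg 82.5 ± 49.0 and 103 ± 38.3 (SD, n = 7), and both failed the test (adjusted p 0.833 and 0.926 by edgeR). Mature miR-124 is not measured by these libraries.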

How the data were processed

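Raw read counts per gene were deposited by the authors as 1 table for each sorted fraction, with 1 column per library, per the labels. The genome build was GRCm38, per the submitters' processing notes, but which aligner and counter were run, with or without strand and molecular identifiers, was not given in the sources used here. Empty cells (NA) were taken as 0. The table has 41550 entries, of which 1, with 0 counts, has no gene name and was left out. Columns were tied to samples by the sample descriptions, since for 3 animals the number in the title is 1 lower than in the column name.

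Genes were filtered with filterByExpr, scaled with TMM factors and tested with edgeR 4.0.16 (quasi-likelihood, robust, two-sided; R 4.3.3). DESeq2 1.42.0 and limma 3.58.1 (voom) were alternatives, with other filters, libraries and animals. Sites were searched in 3′ UTRs built from GENCODE release 21 by Ensembl identifier, matched for 41474 genes, and per-library levels used log2(CPM + 1). Both hemispheres of 1 animal share a number, so the animal pairs the libraries by design. Over 5011 genes the deviations of paired libraries correlated between -0.06 and 0.05. The fit was tested on simulated data.

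Named genes were those called by any tool, the 12 smallest p-values on each side (mean of at least 5 CPM, same direction in at least 6 of 7 animals), the 6 smallest among 8mer genes on each side, all tested reported targets and up to 2 members of every list. Members and lists were chosen with earlier results of these data known. Lists are described by counts and medians and were not tested. Some genes that this rule names are not reported here. Nothing states that strands were separated, so antisense and overlapping genes, Oip5os1 and microRNA hairpins among them, may share reads. Depth limits low genes. The p-values of the main fit measure the spread between libraries of a vector group, taken as independent although both hemispheres of each animal were used.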

Additional observations from a re-analysis of the deposited data

Results flagged for a closer look

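A value was picked out where 1 of 7 libraries of a group lay far from the others for the group's range (Dixon's test), which chance does in about 1 in 20 groups. The g4 HA-positive library of animal 19 gave most of these. In it the summed oligodendrocyte markers stood at 2116 CPM (next 559), the microglia markers at 444 (next 50.4) and the markers of striatal projection neurons at 955 (next 489). The same library held Emilin2 at 100.2 CPM (next 34.5) and was the low one for Lrrc58, at 134 CPM (next 306).

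The 2 other values came from other animals. The summed astrocyte markers stood at 3225 CPM in the g4 library of animal 21 (next 1947), the library that also held the highest Slc1a2. The level of genes with any miR-124 site, relative to genes without one, was -0.00764 in the g4 library of animal 20 (next 0.0468). The cause of these values was not tested.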

How the results depend on the processing

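Counts of called genes moved with the settings. The higher and lower counts, 1 and 2 over all 14 libraries, were 14 and 14 without a filter on low counts, 4 and 7 with DESeq2, 0 and 2 with limma voom, and 6 and 2 with all 28 libraries in 1 model. They were 0 and 0 without the libraries under 10000 detected genes, 0 and 0 in animals 17 to 20 alone, and 1 and 14 in animals 21 to 23 alone. Leaving out 1 library at a time gave 1 to 4 higher and 1 to 3 lower genes. The count of 4 came without the empty library of animal 23, where Kcnq3, Pcp4 and Slc1a2 were added. For the difference between the fractions, 2 genes higher and 1 lower passed without a filter, against 0 and 0, and leaving out the g4 HA-positive library of animal 19 gave 0 and 0.

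With the animal as a replicate block, which follows the pairing of hemispheres, 0 genes were higher and 1, Oip5os1, was lower. The difference of 8mer genes from genes without a site was 0.19 and that of any site 0.10 with the block, against 0.21 and 0.11. The fits with the block and without animal 19's libraries were chosen after seeing the data. Per-animal pairs correlated best with their own number in 1 of 7 animals.

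The 8mer difference was 0.16 to 0.26 and the any-site difference 0.09 to 0.12 with 1 library left out. The 8mer difference was 0.29 in the middle of 3 bins of 3′ UTR length and 0.13 in the middle of 3 bins of expression, and the any-site difference 0.19 in the lowest and 0.057 in the highest bin of expression. Both stayed above 0 under every alternative run.

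Signs of single genes turned only for genes that failed the test. Without the g4 library of animal 19 the medians of the oligodendrocyte and striatal projection neuron lists turned from 0.17 and 0.046 to -0.046 and -0.19. Without the libraries under 10000 detected genes, Rap2a was at -0.15, Bace1 at 0.40 and Sox6 at -0.044. In animals 17 to 20 alone Usp14 was at -0.014 and Arid1a at 0.24. In animals 21 to 23 alone Gria3 was at 0.032, Bace1 at 0.16 and Mir124a-1hg at -0.17. With 1 library left out, Bace1 ranged from -0.31 to 0.066 (above 0 without empty 22 and, at 0.02, without g4 18) and Sox6 from -0.11 to 0.27 (below 0 without g4 17 and, at -0.039, without empty 22). Tac1 was at 0.67 with limma voom. The cause of these changes was not tested. Of the values of single genes recomputed, 2123 kept their side and call, 34 gained a call, 14 lost one and 13 changed sign.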

Other observations

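Most tested small nucleolar RNA genes and small nuclear RNA genes lay on the higher side with g4 in HA-positive nuclei, in groups chosen after their values were seen. Of 64 tested small nucleolar RNA genes, whose products guide the modification of ribosomal RNA, 52 were higher, with a median log2 fold change of 0.44 beside -0.01 for all genes. At an unadjusted p under 0.05 were 9 higher and 1 lower, and 0 were called by edgeR (lowest adjusted p 0.696). The median was 0.54 without the g4 library of animal 19 and 0.36 with the animal as a block. Their summed level overlapped between the groups, from 5283 to 8943 CPM with empty vector and from 3119 to 14450 with g4, and was higher in 4 of 7 animals. In HA-negative nuclei 25 of 67 were higher, with a median of -0.10. Of 20 spliceosomal small nuclear RNA genes 18 were higher in HA-positive nuclei (median 0.17) and 5 of 22 in HA-negative nuclei (median -0.42). Many of these genes have near-identical copies, between which reads may have been split, and many lie inside introns of host genes.

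Enzymes of cholesterol synthesis formed a list made after values of some members had been seen. Of 19 members 9 had enough counts, and 8 of these stood above 0 (median 0.53, and 0.28 without the g4 library of animal 19), with 0 called. Sqle, which makes squalene epoxide, had 16.7 ± 7.50 CPM with empty vector and 39.2 ± 7.79 with g4, and Fdft1, which makes squalene, 22.2 ± 11.0 and 44.1 ± 20.7 (SD, n = 7). The summed level of the list lay between 419 and 628 CPM with empty vector and between 507 and 753 with g4, and was higher in 7 of 7 animals. In HA-negative nuclei 10 of 11 were higher, with a median of 0.20.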
